A study of Macaca mulatta with 8 samples.

Results

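The genes described here are those of the ribosomal proteins, in 2 classes: the cytosolic ribosome, whose genes are named RPL and RPS for the large and the small subunit, and the mitochondrial ribosome, named MRPL and MRPS. Members were chosen by symbol, as every row of the count files whose symbol starts with RPL, RPS, MRPL or MRPS followed by a digit, leaving out the kinases named RPS6K and the gene RPS4Y1. This gave 136 of 35432 rows and 135 symbols, with 68 rows in each class, since RPS27A stands on 2 rows. The cytosolic rows include 8 that are paralogs of a core ribosomal protein or carry a related name, namely RPL3L, RPL7L1, RPL10L, RPL22L1, RPL36AL, RPS27L, RPS4Y2 and RPS19BP1, and they are called variants below. RPS19BP1 is a binding partner of a ribosomal protein rather than a subunit, and MRPS36 is now known as a part of the 2-oxoglutarate dehydrogenase complex. RPLP0, RPLP1, RPLP2, RPSA, FAU and DAP3, which also encode ribosomal proteins, lie outside the naming rule.

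RNA was measured in primary microglia, the resident macrophages of the brain, cultured from the subcortical white matter of 4 adult rhesus macaques. The methods list R07110 and R12016 as male, and R02046 and R14143 as female. Cells of each animal were kept for 8 days with 10 ng/mL M-CSF (per the labels; the methods of the study give another concentration) and, from day 7, received 10 µg/mL ultrapure LPS (uLPS), an agonist of TLR4, for 16 h. In the other group the same exposure followed 1 h of pre-incubation with 5 µM MRS2578, a selective antagonist of the UDP receptor P2RY6, so that all cells compared here had received uLPS. There was 1 poly(A) library for each animal and condition, 4 per group. The p-values weigh the difference between conditions within an animal against its spread over these animals. The methods mention DMSO controls wherever MRS2578 was used, whereas the labels name no vehicle.

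Total counts per library ran from 9231109 to 32790348, so that 3 counts, the limit that a count of 0 allows, correspond to between 0.0915 and 0.325 CPM, that is reads scaled to a common library size of 1e+06 counts; this covers counting error only. Of the microglia markers, CSF1R, CD68, ITGAM, SPI1, C1QB and PTPRC were abundant, with mean levels of 1247, 1059, 745, 472, 493 and 416 CPM. TYROBP, AIF1, TREM2 and P2RY12 were lower, at 181, 72.8, 24.9 and 9.1 CPM, and C1QA was not found by its symbol. TMEM119 (0.0904 CPM) and CX3CR1 (0.392 CPM) were near 0. The labels of donor R02046 are in doubt. Of the 8 CPM columns that the study published for 302 genes, 6 were nearest to the library of the same label, and both columns of R02046 were nearest to the library of the other condition of that animal. Results are therefore given under 3 assignments: the deposited labels, the libraries of R02046 exchanged, and R02046 left out.

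A ribosome joins amino acids into protein on a messenger RNA, and the cytosolic and the mitochondrial ribosome are separate machines. The cytosolic ribosome makes nearly all proteins of the cell, including every protein of both ribosomes, while the mitochondrial ribosome reads only the few messengers of mitochondrial DNA, which encode subunits of the respiratory chain and the ATP synthase. Subunits of a ribosome are built in at equal numbers, with few exceptions. Many messengers of cytosolic ribosomal proteins start with a cytosine and a run of pyrimidines, the 5′ terminal oligopyrimidine (TOP) motif, through which the kinase mTOR and the protein LARP1 govern their translation.

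The motif is seen in the sequence around the annotated transcript starts (RefSeq, Mmul_10), shown from 5 bases before the start to 15 bases from it, in the direction of transcription. Capitals mark the pyrimidine run, defined as a C within 3 bases of the start followed by at least 5 more pyrimidines. The sequences are those of the most abundant cytosolic member, of members with the widest differences between libraries, of the pair RPL22 and RPL22L1, and of mitochondrial members with and without the motif.
RPL4 (chr7:43101320-43101339, minus strand): ttCTCCTCTCTCCgccatgg
RPS3 (chr14:68468587-68468606, plus strand): caCTTCTTTTTCTTTCggcg
RPL24 (chr2:174444780-174444799, plus strand): tctttCTCTTCgccatctct
RPL32 (chr2:144228253-144228272, minus strand): gtCCCTTCTCTCTTCCTCgg
RPL19 (chr16:50308970-50308989, plus strand): gaggagCTCTTTCCTTTCgc
RPL22 (chr1:218328547-218328566, plus strand): cctCCCTTTCTaactccgct
RPL22L1 (chr2:75781142-75781161, minus strand): ctcgcgtgcgtccgtatccg
MRPS2 (chr15:2751351-2751370, minus strand): ggCTCCTCCgggcctgtagg
MRPL40 (chr10:33219709-33219728, minus strand): ggcaccgcgggtcggactgc
MRPL9 (chr1:99326016-99326035, plus strand): cgacgctggggtcctccctt

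Of 135 symbols, 131 had a RefSeq start. The TOP run was present at 24 of 56 core cytosolic starts (42.9%), at 0 of 8 variant starts, at 3 of 67 mitochondrial starts (4.48%, MRPS2, MRPS18C and MRPL54) and at 7.24% of all 20731 protein-coding starts. RPL22 carried the run and its paralog RPL22L1 did not. Other motifs were searched on both strands from 250 bases before to 50 after the start, allowing overlaps. The ETS core CCGGAAG was found in 28.6% of core cytosolic and 31.3% of mitochondrial windows, against 10.4% of all windows. The YY1 site AANATGGCG was in 7.14%, 14.9% and 3.15%, the NRF1 site (GCGCA, any base, then GCGC) in 14.3%, 7.46% and 6.43%, and TATAAA in 7.14%, 5.97% and 11.1% of the same sets. A match describes letters in a window and not a bound site, and an annotated start can lie some bases from the start used in these cells.

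Cytosolic members were far more abundant than mitochondrial ones. Per kilobase of transcript, the median level was 186 CPM per kb over 56 core cytosolic genes, 41.5 over the 8 variants and 24.98 over 67 mitochondrial genes. The 5 most abundant cytosolic members were RPL4, RPL8, RPS3, RPL13 and RPL13A, of which RPL4, RPL8, RPL13 and RPL13A belong to the large subunit and RPS3, which lines the entry of the messenger, to the small one. RPL8 stood highest per length at 743 CPM per kb, followed by RPL13 at 698, RPS3 at 685, RPL4 at 553 and RPL13A at 446. The most abundant mitochondrial members in CPM were MRPL18, MRPL9, MRPL3, MRPS6 and MRPL49, with 97.3, 57.2, 29.4, 63.3 and 86.1 CPM per kb. None of the 5 reached the median of the core cytosolic genes.

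Although subunits are needed in equal numbers, the counted levels of the core cytosolic genes differed widely, with quartiles of 57.0 and 367 CPM per kb and 743 in RPL8. The SD of the log2 level per kb was 1.87 over the 56 core cytosolic genes and 1.36 over 66 mitochondrial genes with at least 1 read. Genes of cytosolic ribosomal proteins have many processed pseudogenes, and only uniquely placed reads were counted by the study. The 13 core cytosolic genes with no near-identical copy elsewhere in Mmul_10 (at least 95% identity over at least 80% of the transcript) had a median of 397 CPM per kb, the 37 with 1 to 9 copies 197, and the 6 with 10 or more copies 49.1. Among mitochondrial genes, 57 had no copy and a median of 24.98 CPM per kb, and the 10 with a copy had at most 2 and a median of 23.0. The counted level of a member with copies is therefore uncertain, and the part of lost reads in these levels was not tested. Even among genes without a copy the SD stayed at 1.62 in the 13 core cytosolic and 1.33 in 56 mitochondrial genes.

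**Figure D1:**
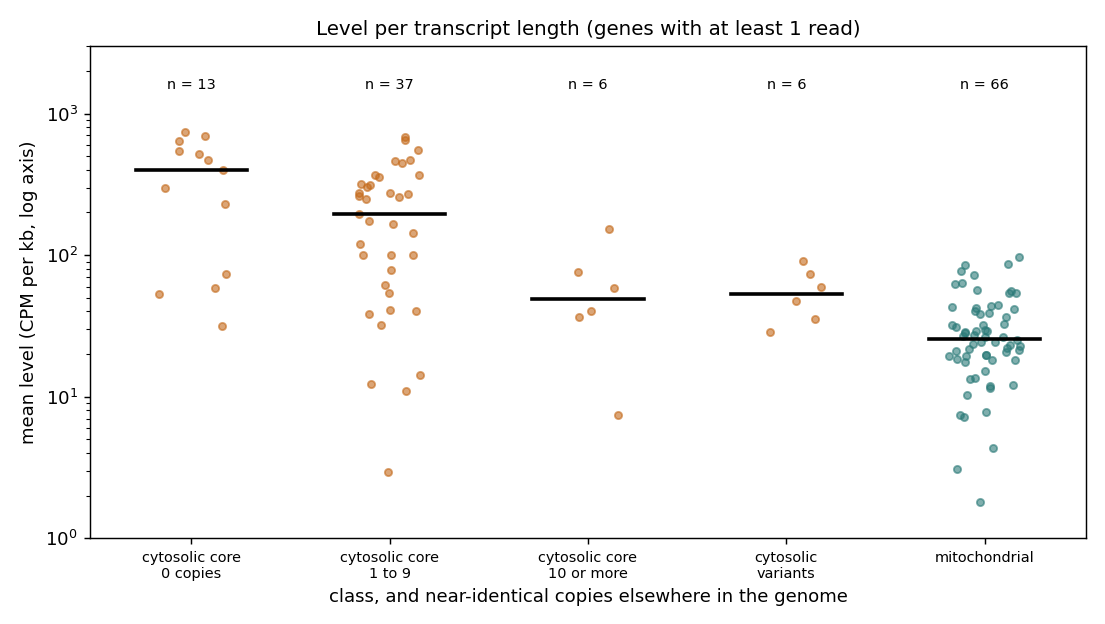
Mean level over 8 libraries in CPM per kb (log axis) of core cytosolic genes split by their number of near-identical copies, of cytosolic variants and of mitochondrial genes; points are genes with at least 1 read and lines are medians. Core cytosolic genes without copies sit highest, at a median of 397, and mitochondrial genes lowest.

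The variants differed widely in level. RPL3L, a paralog of RPL3 known from heart and skeletal muscle, and RPL10L, a paralog of RPL10 known from the testis, had 0 reads in all 8 libraries, while RPL3 and RPL10 stood at 144 and 269 CPM per kb. RPL22L1 and RPL22, which can replace each other in the ribosome, were level, at 73.5 and 73.3 CPM per kb, with a ratio between 0.773 and 1.27 over the libraries. RPL7L1, a factor of ribosome assembly related to RPL7, stood at 47.7 CPM per kb against 316 of RPL7, a ratio between 0.126 and 0.201. RPL36AL, RPS19BP1 and RPS27L, a p53 target, were at 90.8, 59.4 and 35.4 CPM per kb. RPL26L1, RPL39L and RPS27 were not analysed here.

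RPS4 is encoded on both sex chromosomes. RPS4Y2, on chromosome Y, was at 45.9 and 49.6 CPM in R07110 and at 39.7 and 46.1 CPM in R12016, with uLPS and with uLPS and MRS2578 respectively, and had 0 reads in the 4 libraries of R02046 and R14143. RPS4X, on chromosome X and named after its values were seen, was at 177 to 235 CPM in R07110 and R12016 and at 323 to 400 CPM in R02046 and R14143, without overlap. With 2 animals of each sex and no sex in the labels, this difference was not tested.

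Summed over its 68 rows, the cytosolic class took between 0.877% and 1.36% of all counts and the mitochondrial class between 0.199% and 0.299%. With uLPS, the cytosolic sum read 10007, 9880, 13399 and 10250 CPM for R07110, R12016, R02046 and R14143. After MRS2578 the same animals had 11759, 12788, 10031 and 8540 CPM. The sum was thus higher with MRS2578 in R07110 and R12016 and lower in R02046 and R14143 as labelled, and the groups overlapped. The mitochondrial sum was 2185, 2143, 2941 and 2098 CPM with uLPS, and 2289, 2182, 2318 and 2062 CPM with uLPS and MRS2578. It differed little between conditions except in R02046.

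The log2 difference of the cytosolic sum, uLPS and MRS2578 minus uLPS, was 0.23, 0.37, -0.42 and -0.26 in R07110, R12016, R02046 and R14143, with a mean of -0.02 ± 0.38 (SD, n = 4). With the R02046 libraries exchanged the mean was 0.19 ± 0.31, and without R02046 it was 0.11 ± 0.33 (SD, n = 3). The mitochondrial differences were 0.07, 0.03, -0.34 and -0.02, with a mean of -0.07 ± 0.19, against 0.10 ± 0.16 with R02046 exchanged and 0.02 ± 0.05 without it. Cytosolic transcripts outweighed mitochondrial ones by a factor of 4.14 to 5.86, and the mean log2 difference of that ratio was 0.05 ± 0.26, 0.09 ± 0.24 and 0.09 ± 0.30 under the 3 assignments. Each of these means lay within 1 SD of 0.

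**Figure D2:**
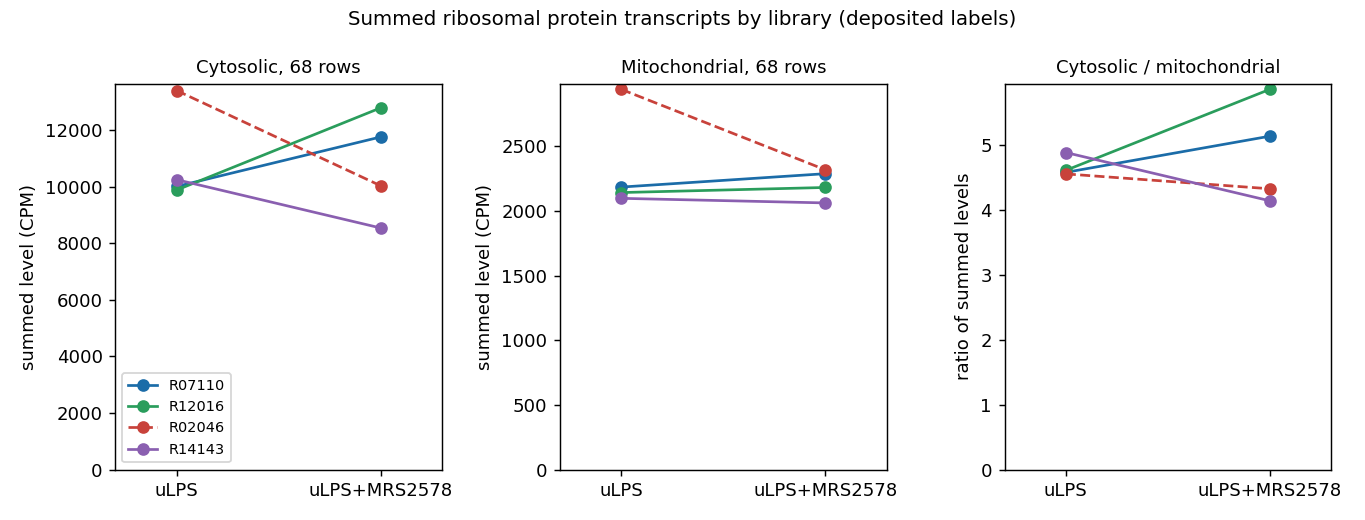
Summed level in CPM of the cytosolic and of the mitochondrial class, and their ratio, in each of the 8 libraries; lines join the libraries of an animal, and the dashed line is R02046, whose labels are in doubt. The cytosolic sum is higher with MRS2578 in R07110 and R12016 and lower in R02046 and R14143.

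No member passed the test. With edgeR's quasi-likelihood test and the animal as a block, 0 of 65 cytosolic and 0 of 67 mitochondrial members tested reached the threshold, an adjusted p of 0.05, with the deposited labels, as was so for 0% of 12131 genes. With the R02046 libraries exchanged, 0 of 65 and 0 of 67 passed, against 0.618% of all genes (75 genes), and without R02046, 0 of 66 and 0 of 67, against 0% of 12295 genes. DESeq2's Wald test and edgeR's likelihood ratio test with the deposited labels also called 0 members. At an unadjusted p under 0.05, 0 cytosolic and 3 mitochondrial members passed with the deposited labels (5.14% of all genes), 9 and 4 with R02046 exchanged (16.4%), and 4 and 2 without R02046 (13.6%). The median SE of the log2 fold change was 0.18 over cytosolic and 0.13 over mitochondrial members with the deposited labels.

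Members that were not tested had too few counts. RPL3L, RPL10L and MRPS34 had 0 reads. The median fitted log2 fold change was -0.04 over cytosolic and -0.08 over mitochondrial members with the deposited labels, beside -0.01 over all genes. It was 0.21 and 0.11 with R02046 exchanged, and 0.12 and 0.02 without R02046, beside 0.001 and -0.004 over all genes. Of the cytosolic members, 21 of 65, 61 of 65 and 55 of 66 had a fold change above 0 under the 3 assignments, and of the mitochondrial members 15, 51 and 35 of 67. With the deposited labels the cytosolic median was above 0 without R14143 too (0.07), and it was -0.16 without R07110 and -0.18 without R12016.

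The cytosolic members shared their direction within each animal, but the direction differed between animals. With MRS2578, 61 of 65 cytosolic members were higher in R07110 (50.3% of all genes tested) and 61 of 65 in R12016 (49.8%). In R02046 as labelled, 0 were higher and 64 lower (49.8% of all genes higher), with RPS4Y2 at 0 reads in both libraries, and in R14143, 7 were higher and 57 lower (46.7%). The median log2 differences were 0.27, 0.40, -0.47 and -0.32 in the order R07110, R12016, R02046 and R14143. Mitochondrial members had 47, 42, 4 and 25 of 67 higher and medians of 0.05, 0.06, -0.35 and -0.05.

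The cytosolic minus the mitochondrial median was 0.22, 0.34, -0.12 and -0.27 in the 4 animals, with a difference of the fitted medians of 0.04, and of 0.10 with R02046 exchanged and 0.10 without it. The pattern of higher in R07110 and R12016 and lower in R02046 and R14143 as labelled held for 53 of 65 cytosolic and 19 of 67 mitochondrial members, against 12.9% of all genes. As labelled, the animals of each pair share their sex, which cannot be told apart here from other traits of these animals. With the R02046 libraries exchanged, the cytosolic sum of R02046 differed by 0.42 (log2), in the direction of R07110 and R12016. The animals then no longer part by sex, and only R14143 was lower. The large and the small cytosolic subunit went alike, with medians of 0.30, 0.42, -0.47 and -0.27 over 34 large-subunit genes and 0.23, 0.40, -0.47 and -0.34 over 25 small-subunit genes. Cytosolic genes with the TOP run at the annotated start had medians of 0.33, 0.41, -0.59 and -0.26 (24 genes). Core genes without it there had 0.25, 0.40, -0.41 and -0.33 (31 genes). Some of the latter, such as RPS13 and RPS16, hold a pyrimidine run further downstream, so these groups may not part true TOP messengers from others.

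**Figure D3:**
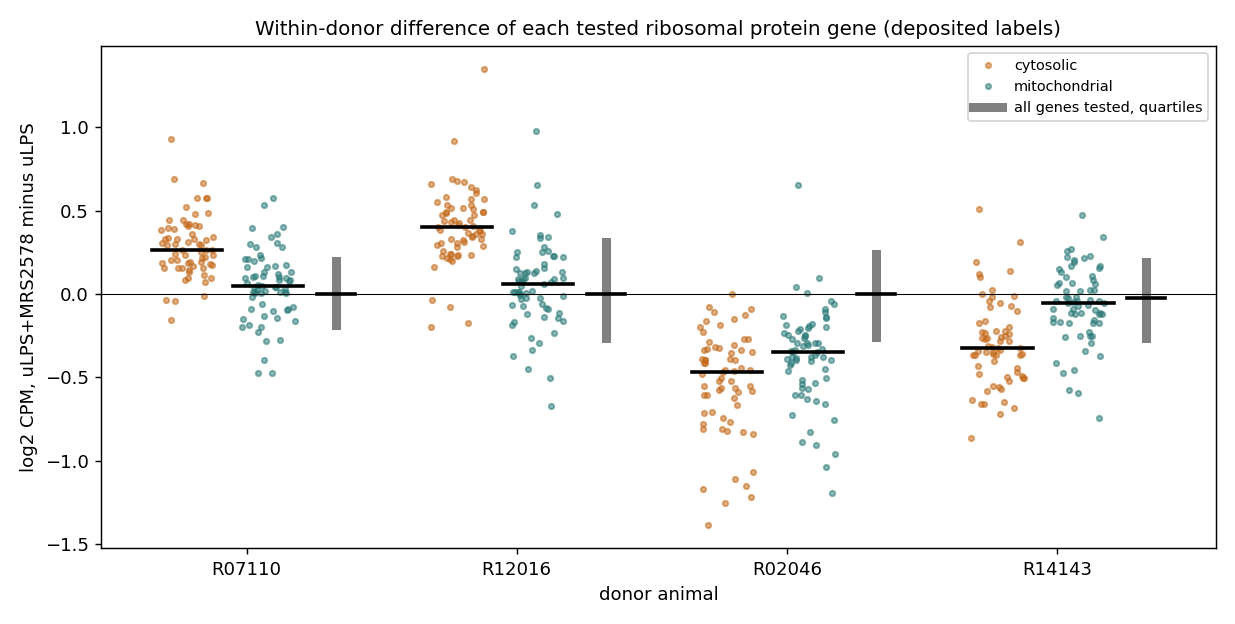
Log2 CPM with uLPS and MRS2578 minus that with uLPS, within each animal, for 65 cytosolic and 67 mitochondrial members (points; lines are medians) and the quartiles of all genes tested (grey). Cytosolic members lie mostly above 0 in R07110 and R12016 and mostly below 0 in R02046 and R14143.

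The within-animal differences also varied with transcript length, and the part of length in the ribosomal protein result was not tested. Ribosomal protein messengers are short, with a median length of 682 bases over the core cytosolic and 1079 over the mitochondrial genes. Among genes that are not members, 556 with transcripts under 1000 bases had median log2 differences of 0.14, 0.13, -0.32 and -0.21 in R07110, R12016, R02046 and R14143, and 3182 with 4000 bases or more had -0.06, -0.07, 0.20 and 0.10. Short genes outside the ribosome were thus higher and lower in the same animals as the cytosolic members. When a trend on transcript length, fitted over non-members in each library, was subtracted, the cytosolic medians were 0.12, 0.22, -0.11 and -0.05 (53, 57, 15 and 25 of 61 higher). The mitochondrial medians were then -0.02, -0.04, -0.14 and 0.11 (31, 28, 19 and 42 of 66 higher). With that trend as an offset in the fit, an alternative chosen after seeing the data, the cytosolic median fold change was 0.03, 0.11 and 0.10 under the 3 assignments and the mitochondrial one -0.02, 0.05 and 0.01, and 0 members were called.

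**Figure D4:**
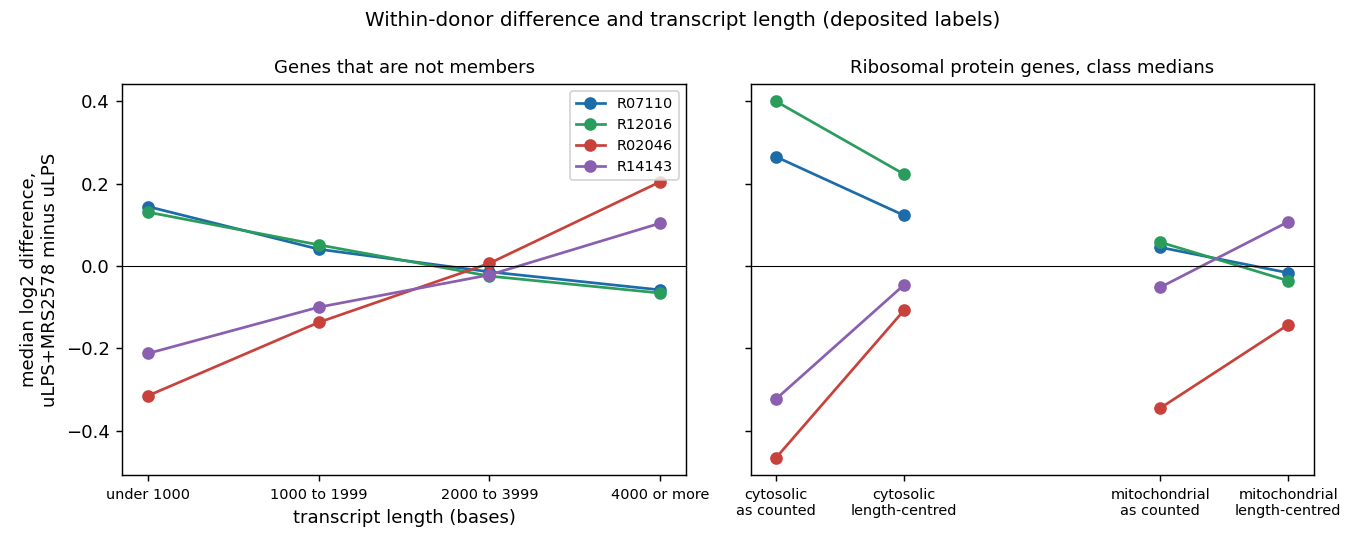
Left, median log2 difference within each animal for genes that are not members, by transcript length in bases; right, class medians of the ribosomal protein genes as counted and after subtracting the length trend. The cytosolic medians lie nearer to 0 after length-centring, from -0.11 to 0.22, than as counted.

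Markers of other cells also differed between libraries. The summed level of 5 mural and fibroblast markers, carried by COL1A1 and DCN with RGS5 near 0, was 79.6, 62.9, 208 and 656 CPM with uLPS and 116, 131, 275 and 244 CPM with uLPS and MRS2578. It was higher with MRS2578 in 3 animals and lower in R14143, where the cytosolic class was lower too, and higher in R02046, where the class was lower. The 12 microglia markers found summed to 5054, 5365, 4623 and 4451 CPM with uLPS in R07110, R12016, R02046 and R14143. With uLPS and MRS2578 the sums were 4427, 4560, 5220 and 4058 CPM in the same order. R02046 as labelled was the only animal whose microglia sum rose after the antagonist, and it fell in each of the others. Of 10 microglia markers tested, 8 had a fold change below 0 with the deposited labels and 9 with R02046 exchanged, and 0 were called. The summed level of 5 astrocyte markers was 94.5, 163, 74.6 and 160 CPM with uLPS and 110, 175, 74.2 and 93.4 CPM with uLPS and MRS2578. Of its genes, GFAP differed by 0.32, 0.52, -0.67 and -0.85 and GJA1 by 0.34, 0.53, -0.65 and -1.75 on the log2 scale in R07110, R12016, R02046 and R14143, in the directions of the cytosolic class in each animal, while SLC1A3 differed by 0.03, -0.42, 0.34 and -0.04, and AQP4 (0.741 CPM) and ALDH1L1 (0.335 CPM) were near 0. Marker sums of oligodendrocytes and endothelial cells lay between 61.3 and 76.1 and between 155 and 291 CPM, and those of neurons and lymphocytes were at most 0.640 and 0.518 CPM. The part of these cells in the ribosomal protein result was not tested, and in bulk RNA fewer cells of a type cannot be told apart from less RNA per cell.

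Among single cytosolic members, RPL24 of the large subunit, at the interface with the small one, had the highest fitted fold change (chromosome 2, 174444785 to 174450351, plus strand). It was at 13.8, 18.6, 30.2 and 11.7 CPM with uLPS and at 26.4, 47.5, 19.8 and 12.7 CPM with uLPS and MRS2578 in R07110, R12016, R02046 and R14143. It was higher with MRS2578 in 3 of 4 animals and lower in R02046 as labelled. The fit with the deposited labels gave a log2 value of 0.47 ± 0.31 (SE; adjusted p = 0.881), against 0.78 ± 0.19 (adjusted p = 0.108) with R02046 exchanged and 0.82 ± 0.24 (adjusted p = 0.254) without R02046. RPL24 has 4 near-identical copies.

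RPL37, RPL23A and RPL3, all of the large subunit, followed with fold changes of 0.27, 0.26 and 0.20 (log2; adjusted p of 0.881, 0.888 and 0.898). RPL3 was at 171, 138, 236 and 151 CPM with uLPS and 210, 212, 195 and 166 CPM with uLPS and MRS2578, higher in 3 of 4 animals, and its fold change was 0.33 with R02046 exchanged (adjusted p = 0.162). The lowest fitted values were those of RPL32, RPL22L1, RPL17 and RPL19, again of the large subunit, at -0.35, -0.25, -0.21 and -0.17 (log2; adjusted p from 0.878 to 0.914). RPL32 was at 4.42, 9.0, 11.3 and 5.29 CPM with uLPS and 6.19, 8.79, 5.19 and 2.85 CPM with uLPS and MRS2578. It was lower in R02046 and R14143 and, by 0.03 on the log2 scale, in R12016, and its fold change was 0.20 with R02046 exchanged and -0.09 without R02046. RPL17 was lower in all 4 animals, and so was the lower of the RPS27A rows, 2 of 65 cytosolic members in all, against 6.49% of all genes tested, and 0 were higher in all 4 (6.43% of all genes). With R02046 exchanged, 0 were lower (13.2% of all genes) and 6 higher (10.6%) in all 4 animals, and the fold change of RPL17 was -0.02.

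The abundant cytosolic members lay near 0 in the fit. RPL4 was at 781, 621, 793 and 807 CPM with uLPS and at 835, 757, 726 and 799 CPM with uLPS and MRS2578, a fold change of 0.06 ± 0.12 (log2, SE; adjusted p = 0.953). RPL8, RPS3, RPL13 and RPL13A had fold changes of -0.01, 0.07, -0.09 and 0.01, with adjusted p from 0.939 to 0.998. The groups overlapped in all 5. Of the variants tested, RPL7L1 had -0.07 ± 0.09, and lay within 0.17 of 0 in each animal. RPL22L1 was at 0.18, 0.31, -0.78 and -0.72 in the 4 animals, and its partner RPL22 at 0.34, 0.49, -0.58 and -0.32, in the directions of the class. RPS27L, RPS19BP1, RPL36AL and RPS4Y2 had fold changes of -0.01, 0.05, -0.17 and 0.16 (log2), the last from R07110 and R12016 alone.

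Among mitochondrial members, MRPL40 of the large subunit had the smallest unadjusted p (chromosome 10, 33216216 to 33219723, minus strand). It was at 52.0, 92.1, 60.9 and 47.0 CPM with uLPS and at 39.6, 57.8, 51.3 and 39.5 CPM with uLPS and MRS2578, lower in 4 of 4 animals although the groups overlapped. The fitted log2 value was -0.39 ± 0.11 (SE; adjusted p = 0.878), and it was -0.44 ± 0.12 without R02046 (adjusted p = 0.232) and -0.27 ± 0.14 with R02046 exchanged (adjusted p = 0.395). MRPL40 has 2 near-identical copies, so its counted level is uncertain.

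MRPL39, also of the large subunit, was at 32.1, 42.7, 39.6 and 36.8 CPM with uLPS and at 27.98, 30.04, 30.7 and 30.9 CPM with uLPS and MRS2578, lower in 4 of 4 animals and without overlap between the groups as labelled. The deposited labels gave -0.33 ± 0.11 on the log2 scale (SE; adjusted p = 0.878), and the value was -0.15 with R02046 exchanged. MRPS9 of the small subunit, the third at an unadjusted p under 0.05, had -0.28 ± 0.12 (adjusted p = 0.878), against -0.0027 with R02046 exchanged (adjusted p = 0.995) and -0.19 without R02046 (adjusted p = 0.525). In all, 8 of 67 mitochondrial members were lower in 4 of 4 animals as labelled (MRPL13, MRPL15, MRPL39, MRPL40, MRPS9, MRPS22, MRPS33 and MRPS36), against 6.49% of all genes, and 2 were higher (MRPL24 and MRPL44), against 6.43%. None passed the test with the deposited labels. With R02046 exchanged, 1 was lower (13.2% of all genes) and 11 were higher (10.6%) in 4 of 4 animals. Values of the groups as labelled did not overlap in 0 of 65 cytosolic and 2 of 67 mitochondrial members, MRPL15 and MRPL39, both lower with MRS2578, against 0.412% of all genes lower and 0.668% higher without overlap.

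The other low values, of MRPL52 (-0.41) and MRPS33 (-0.37, log2), rested in part on R02046 and were -0.16 and -0.17 without it. MRPS33 was lower in 4 of 4 animals as labelled, and at 0.11 with R02046 exchanged. MRPL52 was at 15.8, 19.8, 21.7 and 13.6 CPM with uLPS and at 17.4, 18.7, 9.44 and 9.11 CPM with uLPS and MRS2578, and its fold change was 0.14 with R02046 exchanged. The highest values were 0.16, 0.12, 0.12 and 0.10 (log2) in MRPL18, MRPL44, MRPS2 and MRPS7, with adjusted p from 0.901 to 0.927. MRPL18, which is known to bring 5S ribosomal RNA to mitochondria, was at 71.2, 73.7, 117.7 and 70.4 CPM with uLPS and 86.6, 115.9, 103.3 and 66.0 CPM with uLPS and MRS2578, without a common direction. The abundant MRPL9, MRPL3, MRPS6 and MRPL49 had fold changes of -0.02, 0.03, -0.01 and -0.10, with adjusted p from 0.906 to 0.991.

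**Figure D5:**
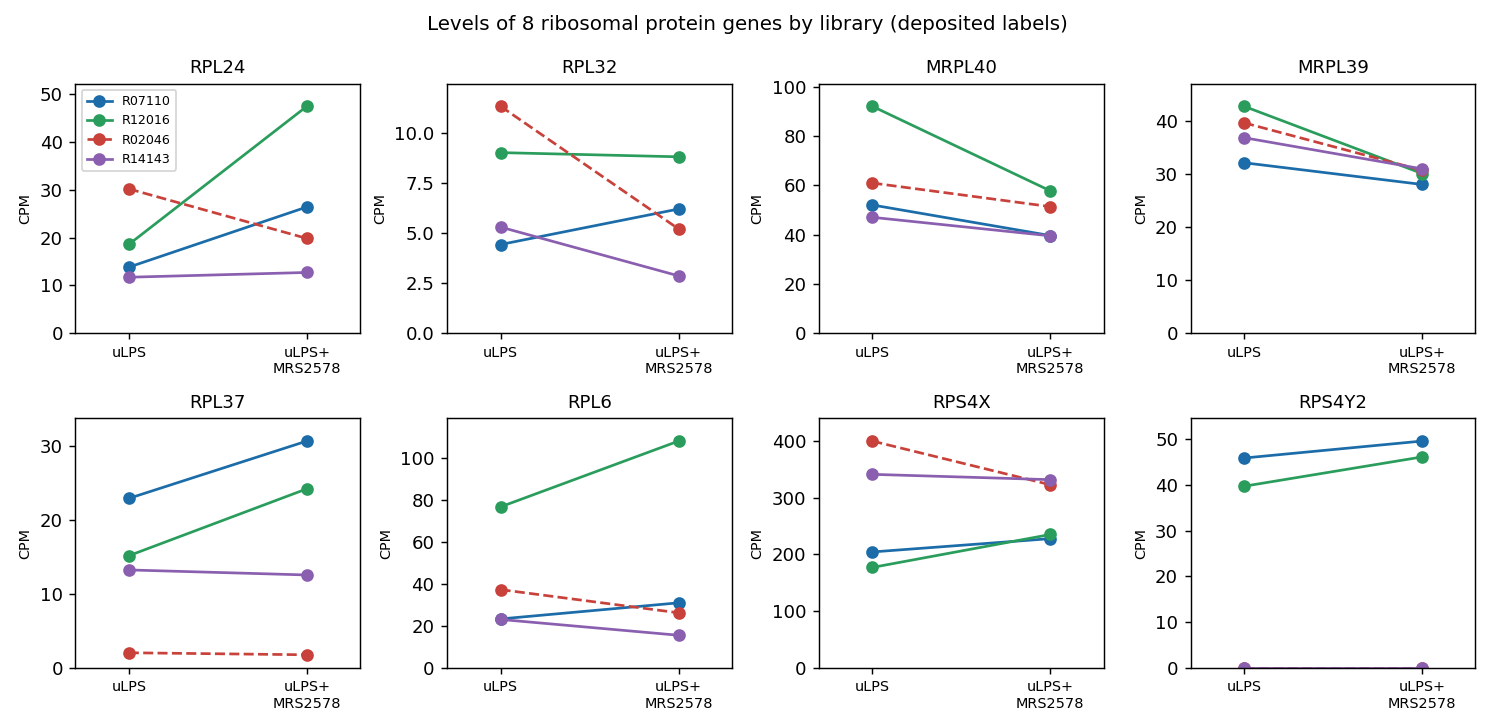
Level in CPM of RPL24, RPL32, MRPL40, MRPL39, RPL37, RPL6, RPS4X and RPS4Y2 in each library; lines join the libraries of an animal, R02046 is dashed, and in RPS4Y2 the lines of R02046 and R14143 lie together at 0. MRPL40 and MRPL39 are lower with MRS2578 in 4 of 4 animals, while RPL37, RPL6 and RPS4X differ mostly between animals.

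Some members differed more between animals than between conditions. They were chosen after their values were seen. RPL37 of the large subunit was at 2.03 and 1.76 CPM in R02046 and between 12.5 and 30.6 CPM in the other 6 libraries. RPL6 was at 76.7 and 108 CPM in R12016 against 15.5 to 37.2 CPM elsewhere. In each case both libraries of the animal stood apart from all others.

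Over the 65 cytosolic and 63 mitochondrial members with a mean of at least 5 CPM, the highest animal exceeded the lowest by a median factor of 1.53 and 1.43. The factor was above 2 in 16 cytosolic and 3 mitochondrial members and above 3 in 6 and 2. Both cytosolic counts include RPS4Y2 of chromosome Y, which was at 0 in R02046 and R14143 and has no finite factor. The share over all genes was not computed, so these counts do not set the members apart from other genes. RPL6 has 14 near-identical copies and RPL37 has 0. Whether variants of the outbred animals alter where such reads are placed was not tested.

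Genes that work with the ribosomes were read from lists chosen with earlier results of these data known. Of 22 genes of translation known for TOP messengers, among them EEF1A1, EEF2 and RACK1, 0 were called, and 14, 22 and 18 had a fold change above 0 under the 3 assignments, with medians of 0.05, 0.17 and 0.12. Their medians within R07110, R12016, R02046 and R14143 were 0.15, 0.35, -0.32 and 0.00423, near 0 in R14143, where the cytosolic median was -0.32. Of 33 genes of ribosome assembly, such as NCL, FBL and NOP56, 0 were called, and their medians of 0.08, 0.05, -0.20 and 0.24 were above 0 in R14143. Of 27 other genes of mitochondrial translation, including TUFM, GFM1 and LRPPRC, 0 were called and 11, 17 and 14 had values above 0.

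The messengers that the mitochondrial ribosome reads were described beside it, on the log2 fold change scale. Of 13 such genes found by symbol, 12 were tested and 11 had a fold change below 0 with the deposited labels, 9 with R02046 exchanged and 11 without R02046, with medians of -0.44, -0.37 and -0.49. None was called, and 4, 7 and 6 of 12 had an unadjusted p under 0.05, all lower, beside 5.14%, 16.4% and 13.6% of all genes. Copies of these genes elsewhere in the genome were not sought, so the part of lost reads was not tested. Counted levels of the 13 genes were uneven, with means from 0.573 CPM in ND3 to 963 CPM in COX1. Their summed level was 2750, 3370, 3052 and 3638 CPM with uLPS and 1795, 1829, 3039 and 3282 CPM with uLPS and MRS2578 in R07110, R12016, R02046 and R14143. It was lower in R07110 and R12016 by more than in R02046 and R14143, while the mitochondrial ribosomal protein sum of R07110 and R12016 differed by 0.07 and 0.03 on the log2 scale.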

How the data were processed

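RNA-seq was read from 8 tables of whole-number counts per Ensembl gene (35432 rows), deposited by the authors without normalization. The tools differ between sources. The submitters' processing notes list Trimmomatic 0.30, TopHat2 2.0.14, SAMtools 1.3, HTSeq 0.6.1p1 and Mmul_10, whereas the methods of the study name fastp, STAR, SAMtools and HTSeq with only uniquely mapped reads within exons counted. The annotation release and the strand setting are not given in the sources used here, so genes overlapping on opposite strands are uncertain, and reads shared with near-identical copies were lost or split.

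Groups and animals came from the labels. Counts were analysed in R 4.3.3 with edgeR 4.0.16 (filterByExpr with a minimum count of 10, TMM scaling, quasi-likelihood F-test with the animal as a block, Benjamini-Hochberg adjustment over all genes tested, threshold 0.05). DESeq2 1.42.0 served for alternatives. The SE of a fold change follows from its F statistic. CPM was computed on TMM-scaled library sizes, with a prior count of 2 where log2 was taken. Libraries of an animal are paired, and their deviations from the group means correlated at 0.602, 0.552, 0.458 and 0.562 in R07110, R12016, R02046 and R14143.

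Positions, starts, transcript lengths (median over the transcripts of a gene) and sequences are from RefSeq on Mmul_10; 131 of 135 symbols matched (MRPL24, RPL37A, RPS27A and RPS3A did not). Copies were sought with minimap2 2.31. Of 12131 genes tested, 10582 (87.2%) had a length for the length trend, a lowess of log2 CPM deviations. The published CPM columns were used only to find the nearest library.

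Members and lists were chosen with earlier results of these data known. Named were, in each class, the 5 most abundant members, the 4 highest and 4 lowest fitted fold changes with the deposited labels, any member called, and the variants with RPL22. Alternatives were the R02046 libraries exchanged, each animal left out, no block, other scalings, no count filter, 1 row per symbol, other tests and, chosen after seeing the data, a length offset and edgeR's earlier quasi-likelihood estimation. Results of some members are not reported here.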

Additional observations from a re-analysis of the deposited data

Results flagged for a closer look

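A sample was marked when its gap to the nearest of the other 3 in its group was too large a share of the range of the group by Dixon's criterion at the 0.05 level. Of 70 groups of 4 examined, for 33 named genes and both class sums, 8 were marked, and chance marks about 1 in 20 groups. The library of R02046 labelled uLPS made up 7 of the 8. In it the summed cytosolic level was 13399 CPM, against 9880 to 10250 in the other uLPS libraries, and the summed mitochondrial level 2941 CPM, against 2098 to 2185. RPL23A was at 11.4 CPM (others 5.55 to 5.91), MRPL18 at 117.7 (70.4 to 73.7), MRPL9 at 131.3 (71.2 to 78.4), MRPS7 at 51.8 (31.9 to 34.7) and MRPS33 at 4.38 (1.79 to 2.19). This library has the lowest total count, 9231109, and it is one whose label is in doubt. With uLPS, RPL4 was lowest in R12016, at 621 CPM against 781 to 807. The genes of a class move together, so these marks are not independent.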

How the results depend on the processing

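The count of called members, 0 in each class, did not change under any alternative run, whereas over all genes the count was 0 with the deposited labels, 1 with DESeq2's Wald test, 5 with edgeR's likelihood ratio test, 75 with R02046 exchanged and 114 with R02046 exchanged and the length offset. Medians and sums moved by less than the SD over animals except the mitochondrial median. With R02046 exchanged, that median went from -0.08 to 0.11, against an SD of 0.19. The cytosolic median moved further, from -0.04 to 0.21, and was within its SD of 0.43 only because that SD is wide. Both SDs include R02046 as labelled. The exchange reverses the sign of the R02046 difference, whose median as labelled was -0.47 over cytosolic and -0.35 over mitochondrial members. Leaving out each animal in turn gave cytosolic medians from -0.18 to 0.12, mitochondrial medians from -0.12 to 0.02, class differences from -0.07 to 0.17, cytosolic sums from -0.14 to 0.11 and mitochondrial sums from -0.12 to 0.02 (log2). Without the animal as a block the medians were -0.01 and -0.10, the class difference 0.09, and no call changed. Of 31 named genes tested, these changed sign. Without the block, RPS27L was at 0.075 and RPL22 at 0.0015. With R02046 exchanged, RPL8 was at 0.16, RPL13 0.082, RPL32 0.20, RPL22L1 0.14, RPL19 0.23, MRPL9 0.18, MRPS6 0.040, MRPL52 0.14, MRPS33 0.11, RPL36AL 0.096, RPS27L 0.38 and RPL22 0.28. Leaving out each animal in turn gave RPL4 from -0.011 to 0.12, RPL8 from -0.12 to 0.10, RPS3 from -0.075 to 0.23, RPL13A from -0.16 to 0.12, RPL19 from -0.29 to 0.040, RPS19BP1 from -0.12 to 0.19, RPS27L from -0.23 to 0.25, RPL22 from -0.18 to 0.17, MRPL9 from -0.099 to 0.11, MRPL3 from -0.075 to 0.10, MRPS6 from -0.055 to 0.018 and MRPS2 from -0.0082 to 0.23. RPS4Y2 has no value without R07110 or R12016, where it did not pass the filter on low counts. Depth limits the members under 10 CPM, 7 cytosolic and 6 mitochondrial, and with 4 animals a difference near the median SE, 0.18 in cytosolic members, was not detectable.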
